A study of Mus musculus with 24 samples.

Results

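The comparison described here asks whether the effect of Cre on gene expression differed between cells with altered Vhl alone and cells with altered Vhl and Rassf1a. For each gene, the effect of Cre (Cre libraries against GFP libraries) was taken in cells with an altered Vhl gene and in cells with altered Vhl and Rassf1a, and the former was subtracted from the latter. This log2 difference of Cre effects was formed from 12 of the 24 libraries of the study, 3 in each of 4 groups. The groups are named Vhl GFP, Vhl Cre, Vhl/Rassf1a GFP and Vhl/Rassf1a Cre, where the Cre libraries are labelled as knockout and the GFP libraries as control. All are cultured mouse embryonic fibroblasts, per the sample labels, taken at E13.5. The remaining 12 libraries are of WT and of Rassf1a cells treated in the same pair of ways. The labels do not state how Cre or GFP was delivered, which exons were altered, or whether GFP cells of the Vhl/Rassf1a line still had intact Rassf1a. If those cells did, the Cre effect in that line includes the loss of Rassf1a. The comparison would then set loss of both genes against loss of Vhl alone. They also do not tie the libraries to embryos or to separate cultures, so that p-values may measure only the technical spread between these samples. A design note of the series names single kidney tubule cells, and here the sample labels were followed.

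As background, the Vhl protein binds the alpha subunits of the hypoxia-inducible factors (HIF) while oxygen is present and brings them to a ubiquitin ligase for degradation. Cells without it keep genes of glucose uptake, glycolysis and blood vessel growth switched on, and its loss is the usual first step of clear cell renal cell carcinoma. Rassf1a, a product of the Rassf1 gene, is a scaffold protein that binds Hippo pathway kinases and microtubules, and its promoter is often methylated in tumours of the kidney and other organs.

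Among the 38 gene lists examined, which were chosen by hand, the mitosis and spindle list held the highest share of members whose Cre effect differed between the lines, and genes of secreted inflammatory factors stood among the single largest differences. Promoters of some genes of both groups are shown because part of their members hold certain short letter runs. Genes of mitosis often carry TTTGAA, the core of the cell cycle genes homology region read by the DREAM and MuvB complexes, with CCAAT, the letters read by NF-Y, upstream of it. Many genes of inflammation carry TGANTCA, the letters of the AP-1 factors. The windows below run from 250 bases before to 50 bases after the transcription start and come from RefSeq on GRCm38.p6. They are given 5′ to 3′ on the strand of the gene. In the first 4, which are those of the mitosis genes named by rule, capitals mark TTTGAA and CCAAT on either strand.
Ccnb2, chr9:70421505-70421804, minus strand: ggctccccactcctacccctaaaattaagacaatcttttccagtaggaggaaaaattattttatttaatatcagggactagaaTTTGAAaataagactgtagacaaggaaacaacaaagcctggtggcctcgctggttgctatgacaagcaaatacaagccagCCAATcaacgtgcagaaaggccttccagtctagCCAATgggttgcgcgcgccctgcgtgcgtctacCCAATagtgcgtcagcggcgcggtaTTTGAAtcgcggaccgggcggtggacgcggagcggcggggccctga
Prc1, chr7:80294201-80294500, plus strand: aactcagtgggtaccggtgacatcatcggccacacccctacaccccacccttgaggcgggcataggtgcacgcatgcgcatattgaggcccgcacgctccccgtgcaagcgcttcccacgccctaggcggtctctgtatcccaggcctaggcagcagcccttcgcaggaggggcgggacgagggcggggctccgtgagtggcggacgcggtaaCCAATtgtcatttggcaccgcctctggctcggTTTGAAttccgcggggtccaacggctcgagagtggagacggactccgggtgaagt
Ccnb1, chr13:100786437-100786736, minus strand: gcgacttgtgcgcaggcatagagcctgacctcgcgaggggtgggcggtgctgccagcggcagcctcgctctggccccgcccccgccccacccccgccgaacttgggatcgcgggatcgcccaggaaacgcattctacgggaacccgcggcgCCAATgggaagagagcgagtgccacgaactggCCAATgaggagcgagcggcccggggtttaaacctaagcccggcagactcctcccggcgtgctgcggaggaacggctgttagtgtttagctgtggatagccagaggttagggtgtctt
Nusap1, chr2:119618048-119618347, plus strand: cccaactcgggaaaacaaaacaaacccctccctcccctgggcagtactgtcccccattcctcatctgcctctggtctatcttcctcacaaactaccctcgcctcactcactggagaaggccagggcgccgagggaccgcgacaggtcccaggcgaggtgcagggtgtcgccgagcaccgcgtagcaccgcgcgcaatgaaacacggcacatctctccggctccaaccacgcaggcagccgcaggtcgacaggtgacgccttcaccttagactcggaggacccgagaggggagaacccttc
The windows of Ccnb2 and Prc1 held both motifs, that of Ccnb1 held CCAAT only, and that of Nusap1 held neither. In the next 3, capitals mark TGANTCA on either strand. These 3 secreted inflammatory factors were picked by hand, and all 3 hold it. The window of Cxcl5, another such factor named by rule, is not shown.
Il1rn, chr2:24336610-24336909, plus strand: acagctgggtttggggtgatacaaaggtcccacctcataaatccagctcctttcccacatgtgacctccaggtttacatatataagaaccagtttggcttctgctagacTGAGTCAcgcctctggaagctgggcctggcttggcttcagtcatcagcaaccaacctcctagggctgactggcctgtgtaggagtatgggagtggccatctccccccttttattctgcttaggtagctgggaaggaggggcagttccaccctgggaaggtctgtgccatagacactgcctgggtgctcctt
Mmp3, chr9:7445572-7445871, plus strand: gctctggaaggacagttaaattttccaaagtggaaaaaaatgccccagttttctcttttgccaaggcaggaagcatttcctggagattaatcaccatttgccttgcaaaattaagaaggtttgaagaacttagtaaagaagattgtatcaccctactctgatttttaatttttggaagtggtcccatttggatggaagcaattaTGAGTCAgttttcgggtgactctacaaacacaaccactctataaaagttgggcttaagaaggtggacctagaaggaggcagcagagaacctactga
Mmp13, chr9:7272264-7272563, plus strand: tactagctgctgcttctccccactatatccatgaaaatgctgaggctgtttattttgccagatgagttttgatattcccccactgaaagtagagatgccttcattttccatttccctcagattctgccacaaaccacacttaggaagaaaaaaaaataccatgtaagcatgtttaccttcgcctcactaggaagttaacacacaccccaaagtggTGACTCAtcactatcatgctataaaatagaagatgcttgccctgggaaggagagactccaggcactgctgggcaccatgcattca
Of genes with several windows the one with most matches is shown, and a gene was counted if any of its windows held the letters. A window was found for 33 of 39 tested mitosis genes, and 24 of them (72.7%) held TTTGAA. The share was 14.3% among the 11564 tested genes with a window, 17.9% among all 32851 windows, and 14.3% among genes of DNA replication (4 of 28). CCAAT was in 69.7% of mitosis genes, 64.3% of replication genes and 42.3% of tested genes. TGANTCA was in 41.2% of secreted inflammatory factors (7 of 17), in 6.67% of tested genes and in 7.81% of all windows. A match is a run of letters and not a measured binding site.

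Library totals of the 12 libraries were 32.9 to 53.2 M counts. Levels are given in CPM, counts scaled to a common library size. Vim, an intermediate filament gene listed as a fibroblast marker, had group means of 4656 to 5160 CPM. From the lists of other cell types 8 genes were picked by hand, Ptprc, Adgre1, Pecam1, Cdh5, Epcam, Cdh1, Myod1 and Sox10. They mark leukocytes, macrophages, endothelium, epithelium, muscle precursors and neural crest, and had group means of at most 0.416 CPM. Other members of those lists were higher, such as Flt1 (81.2 to 140 CPM), Eng (42.9 to 63.9) and Krt19 (33.8 to 180). Summed levels were 78.3 to 430 CPM for skeletal muscle, 350 to 816 for cartilage and 431 to 525 for neural markers. The purity of the cells was not tested. Replicate 2 of Vhl/Rassf1a GFP stood apart from its 2 replicates. The SD of its log2 deviations from its group mean was 0.331, against 0.112 to 0.193 in the other 11 libraries, and these deviations correlated with the GC content of genes at 0.799 across genes, which are not independent replicates. Its part in the results was not tested beyond leaving it out. Counts of list members without it, and in a fit with offsets corrected for the GC content of genes, are given for most lists where they moved by over 1.5 times. Some moves are given only here. With GC-corrected offsets 2 contractile genes, 2 fat markers, 2 secreted inflammatory factors and 1 DNA repair gene were lower. They also gave 1 macrophage marker and 2 amino acid response genes that were higher. Over all genes 700 were higher and 490 lower without it, and 1182 and 994 with GC-corrected offsets.

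Vhl itself checked the labels. It stood at 25.7, 27.6 and 26.8 CPM in Vhl GFP and at 2.54, 2.34 and 2.85 in Vhl Cre. In the Vhl/Rassf1a line it stood at 20.8, 21.3 and 23.8 CPM in GFP and at 1.81, 2.70 and 1.77 in Cre. The Cre effect was -3.38 on the log2 scale in Vhl cells and -3.42 in Vhl/Rassf1a cells, and the difference was -0.04 (SE 0.16, adjusted p = 0.933). The lines thus lost Vhl RNA by amounts whose difference did not pass the test. Rassf1 counts cover every product of the gene, so they do not check the Rassf1a label. Rassf1 rose in Cre in both lines, by 0.72 and 0.47, and the difference was -0.25 (SE 0.13, adjusted p = 0.308).

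Of 16573 genes tested, 1010 (6.09%) differed in their Cre effect between the lines at an adjusted p below 0.05 (edgeR's quasi-likelihood test with Benjamini-Hochberg adjustment). A positive log2 difference means that the Cre effect was more upward, or less downward, in Vhl/Rassf1a cells. It was positive in 570 genes (3.44%) and negative in 440 (2.65%), and it reached at least 2-fold in 85 and 72 of these. The median size among the 1010 was 0.519 on the log2 scale. The Cre effect itself passed the test in 5991 genes (36.1%) in Vhl cells, upward in 17.4% and downward in 18.7% of genes tested. In Vhl/Rassf1a cells it passed in 4919 (29.7%), upward in 14.9% and downward in 14.8%. Among the 1010, the Cre effect was the larger in size in Vhl cells in 746 genes (73.9%), against 9256 (55.8%) over all genes tested. In 383 of the 1010 both lines changed in the same direction, 328 of them with the larger effect in Vhl cells. In 396 only the effect in Vhl cells passed the test, in 169 only that in Vhl/Rassf1a cells, and in 56 the lines changed in opposite directions.

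**Figure D1:**
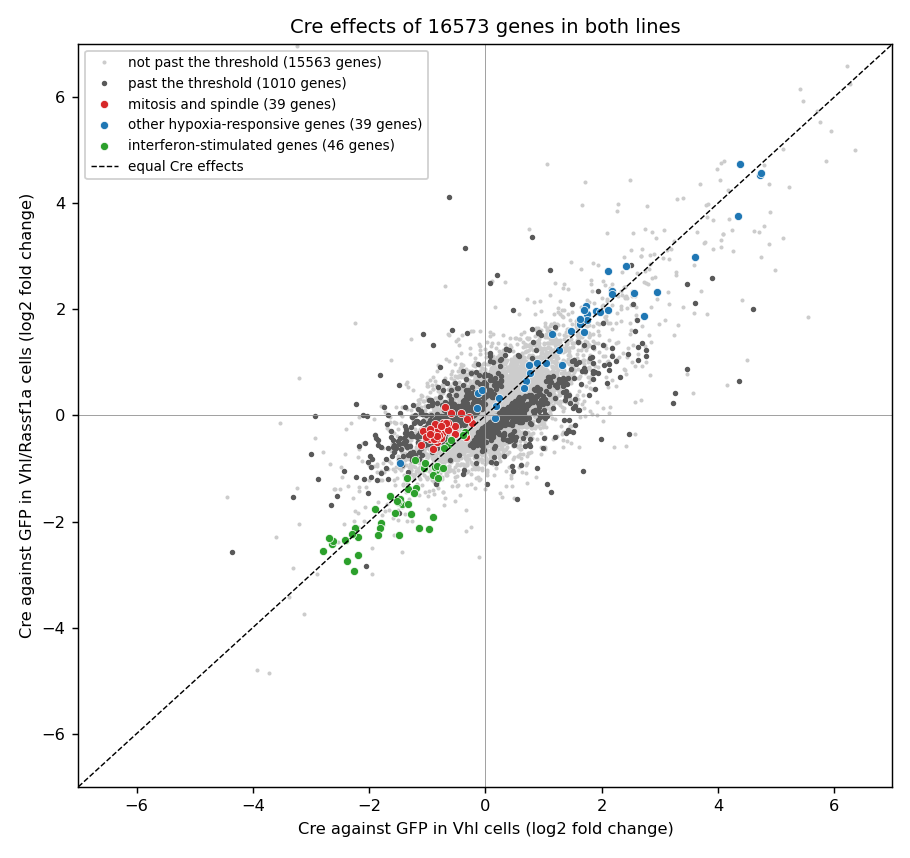
Each point is a gene, with its log2 fold change of Cre against GFP in Vhl cells on the horizontal axis and in Vhl/Rassf1a cells on the vertical axis; dark points passed the test of the difference, coloured points are members of 3 gene lists, the dashed line marks equal effects, and 6 genes lie outside the axes. Mitosis genes (red) lie above the dashed line at the lower left, while hypoxia-responsive and interferon-stimulated genes (blue and green) lie along it.

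A difference of Cre effects can come with a gap between the GFP libraries of the lines, between their Cre libraries, or both. The GFP libraries differed in 4450 genes (26.9%), with Vhl/Rassf1a the higher in 13.2% and the lower in 13.6% of genes tested. The Cre libraries differed in 3119 genes (18.8%), with Vhl/Rassf1a the higher in 9.75% and the lower in 9.07%. Among the 1010 genes, the GFP libraries differed in 778 (77%) and the Cre libraries in 505 (50%); these comparisons share their libraries with the difference itself. The GFP gap alone passed in 489 of the 1010 and the Cre gap alone in 216. The results below therefore give the level in every library, so that the group in which the lines part can be seen.

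The mitosis and spindle list held the highest share of members past the threshold. Of its 39 tested members, 29 (74.4%) had a positive difference and 0 a negative one, against 3.44% and 2.65% of all genes. The median log2 difference was 0.49, against 0.01 over all genes. In Vhl cells 38 of the 39 fell with Cre and in Vhl/Rassf1a cells 30 fell, with medians of -0.77 and -0.28. Of all genes 18.7% and 14.8% fell. Mitosis genes were also the higher in the Vhl/Rassf1a line in both conditions, 35 of 39 among GFP libraries (median 0.39), against 13.2% of all genes, and 39 of 39 among Cre libraries (median 0.92), against 9.75%. Their summed level in the Vhl line was 1844 to 1876 CPM with GFP and 1079 to 1170 with Cre. It was 2418 to 2548 CPM in GFP and 2029 to 2076 in Cre of the Vhl/Rassf1a line, and no pair of these 4 groups overlapped. With GFP it was 2509 to 2682 CPM in WT and 2418 to 2525 in Rassf1a cells. Among the GFP groups the Vhl line was thus the low one, and Vhl/Rassf1a stood near WT and Rassf1a cells. Without Vhl/Rassf1a GFP replicate 2 the count was 27 of 39. In these bulk samples fewer cells in mitosis and less mitotic RNA per cell cannot be told apart.

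Ccnb1 (chromosome 13, 100778650 to 100786570) and Ccnb2 (chromosome 9, 70407692 to 70421547) encode the B-type cyclins that drive entry into mitosis. Ccnb1 stood at 52.1, 48.3 and 49.1 CPM in Vhl GFP and at 26.0, 23.6 and 25.5 in Vhl Cre. The Vhl/Rassf1a line had 65.3, 59.5 and 67.4 CPM in GFP and 51.8, 50.7 and 53.7 in Cre. Cre thus took Ccnb1 far below all GFP libraries in the Vhl line, while the 3 Vhl/Rassf1a Cre libraries lay within or just above the range of Vhl GFP. The log2 difference was 0.69 (SE 0.08, adjusted p = 1.22e-05). Ccnb2 stood at 26.0, 23.6 and 24.2 CPM in Vhl GFP, 12.1, 11.4 and 11.6 in Vhl Cre, 34.7, 36.1 and 36.7 in Vhl/Rassf1a GFP and 29.1, 29.8 and 29.0 in Vhl/Rassf1a Cre. No groups overlapped, and Vhl/Rassf1a Cre lay above Vhl GFP. The difference of Ccnb2 was 0.78 (SE 0.09, adjusted p = 1.03e-05).

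Nusap1 (chromosome 2, 119618298 to 119651244), which bundles spindle microtubules, had the highest difference of the list, 0.86 (SE 0.10, adjusted p = 2.56e-05). It stood at 20.9, 20.6 and 21.5 CPM in Vhl GFP and 12.7, 12.1 and 14.0 in Vhl Cre, with no overlap. Vhl/Rassf1a cells had 24.6, 21.6 and 26.1 in GFP and 26.6, 27.5 and 26.7 in Cre, where Cre lay above GFP and the effect did not pass the test (0.16, adjusted p = 0.0949). Prc1 (chromosome 7, 80294450 to 80316259), which crosslinks microtubules of the central spindle, was at 95.3, 88.8 and 96.7 CPM in Vhl GFP and 55.4, 54.0 and 55.6 in Vhl Cre. It was at 128, 119 and 128 CPM in Vhl/Rassf1a GFP and 105, 113 and 108 in Vhl/Rassf1a Cre, and its difference was 0.57 (SE 0.07, adjusted p = 4.34e-05). All 6 Vhl/Rassf1a libraries of Prc1 were above all 6 Vhl libraries.

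The 29 members that passed spanned the stages of division, with differences given here by value alone; those beyond Ccnb1, Ccnb2, Nusap1 and Prc1 were chosen after their values were seen. The kinases Plk1, Ttk, Bub1 and Aurkb had differences of 0.55, 0.61, 0.63 and 0.49, the kinetochore genes Nuf2 and Ndc80 0.69 and 0.55, and the motor genes Kif2c, Kif4, Kif20a, Kif23 and Kif11 0.60, 0.58, 0.57, 0.55 and 0.55. Cdc20, the activator of the anaphase-promoting complex, had 0.61. The smallest among those that passed were those of Tpx2 (0.25), a spindle assembly factor, and of Cdk1 (0.31) and Ccna2 (0.33), which also act before mitosis. The 10 members that did not pass ran from Pttg1 at -0.08 to Knl1 at 0.71. Ckap2, a spindle gene that was listed among p53 targets, stood at 48.1, 44.6 and 46.5 CPM in Vhl GFP, 32.1, 30.0 and 31.0 in Vhl Cre, 61.8, 48.8 and 61.7 in Vhl/Rassf1a GFP and 64.2, 69.3 and 63.6 in Vhl/Rassf1a Cre. Its difference was 0.78 (SE 0.11, adjusted p = 0.000104).

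**Figure D2:**
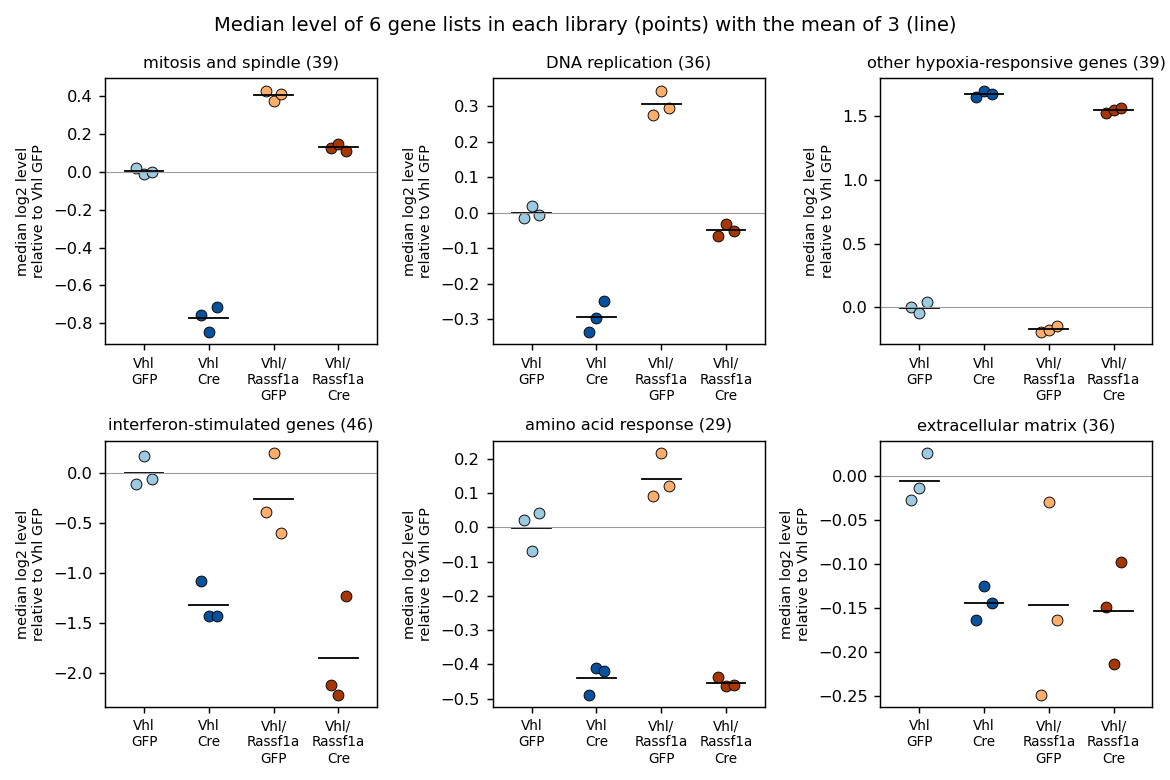
Each point is the median, over the tested members of a gene list (number in brackets), of the log2 level in 1 library relative to the mean of Vhl GFP, and lines mark the mean of the 3 libraries of a group. Mitosis genes fall to about -0.77 in Vhl Cre but stay above 0 in Vhl/Rassf1a Cre, DNA replication genes shift down by similar steps in both lines, and Vhl/Rassf1a GFP replicate 2 is the high point of its group for interferon-stimulated, amino acid response and extracellular matrix genes.

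DNA replication genes, which act in S phase, did not follow that pattern. Of 36 tested, 0 passed the test of the difference in either direction by edgeR's quasi-likelihood test and 0 by DESeq2, 3 had an unadjusted p below 0.05, and across the alternatives tried at most 1 passed in each direction. The median was -0.04. With Cre 25 of the 36 fell in Vhl cells (median -0.31), against 18.7% of all genes. In Vhl/Rassf1a cells 25 fell (median -0.34), against 14.8%. Their summed level with GFP was 1248 to 1271 CPM in Vhl, 1552 to 1617 in Vhl/Rassf1a, 1595 to 1663 in WT and 1434 to 1576 in Rassf1a cells. Against 13.2% and 9.75% of all genes, 26 were higher in Vhl/Rassf1a GFP (median 0.32) and 25 in Vhl/Rassf1a Cre (median 0.30). The lines thus differed at the outset and by a like amount after Cre. Mcm6, a subunit of the replicative helicase, showed this with 82.1, 86.6 and 85.7 CPM in Vhl GFP and 66.8, 68.0 and 67.2 in Vhl Cre, and with 104, 112 and 105 in Vhl/Rassf1a GFP and 74.3, 77.1 and 77.1 in Vhl/Rassf1a Cre. Its difference was -0.16 (SE 0.06, adjusted p = 0.128). Whether the difference of the mitosis list departs from that of the replication list was described by these counts and not tested.

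Of 38 DNA repair genes 1 had a positive difference and 0 a negative one, a share of 2.63% against 6.09% of all genes. It was Fanci of the Fanconi anaemia pathway, which stood at 7.81, 7.96 and 8.56 CPM in Vhl GFP and 3.52, 3.30 and 4.34 in Vhl Cre, and at 10.3, 9.32 and 10.4 CPM in Vhl/Rassf1a GFP and 6.67, 6.35 and 6.97 in Vhl/Rassf1a Cre. Its difference was 0.55 (SE 0.14, adjusted p = 0.0211), and it passed in 8 of the 12 fits that each left out 1 library.

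Among cell cycle inhibitors and D cyclins 2 of 17 were higher and 1 lower, against 3.44% and 2.65% of all genes. The count of higher members was 5 without Vhl/Rassf1a GFP replicate 2 and 11 with GC-corrected offsets, and it ranged from 1 to 11 over all alternatives. Ccnd1, a D-type cyclin of G1 phase, stood at 697, 659 and 601 CPM in Vhl GFP and 437, 437 and 440 in Vhl Cre, against 670, 670 and 629 in Vhl/Rassf1a GFP and 565, 551 and 566 in Vhl/Rassf1a Cre. The GFP groups overlapped and the Cre groups did not, and the difference was 0.35 (SE 0.07, adjusted p = 0.00191). Ccnd2 had 0.25 (adjusted p = 0.0188) and the inhibitor Cdkn1c -0.53 (adjusted p = 0.0225). Of 28 p53 targets 4 were higher and 0 lower, against the same 3.44% and 2.65%. GC-corrected offsets gave 10 higher and 2 lower, and the count of higher members ranged from 2, without Vhl GFP replicate 1 or Vhl/Rassf1a Cre replicate 3 or in the fit of only the 12 libraries, to 10. The 4 were Ckap2, Btg2, Ddit4l and Mdm2. Btg2, an antiproliferative gene, was at 92.0, 86.8 and 90.5 CPM in Vhl GFP, 58.2, 65.6 and 59.9 in Vhl Cre, 73.2, 77.4 and 75.6 in Vhl/Rassf1a GFP and 75.6, 74.5 and 78.9 in Vhl/Rassf1a Cre, with a difference of 0.57 (SE 0.06, adjusted p = 1.4e-05). Mdm2, the ligase that degrades p53, had 0.25 (adjusted p = 0.0189), and it passed in 6 of the 12 fits that each left out 1 library.

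Secreted inflammatory factors held several of the largest single differences. Of 25 tested, 7 had a positive difference and 1 a negative one, against 3.44% and 2.65% of all genes, and the median was 0.24. In Vhl cells 13 fell and 7 rose with Cre, against 18.7% and 17.4% of all genes, and in Vhl/Rassf1a cells 7 fell and 8 rose, against 14.8% and 14.9%. Il1rn (chromosome 2, 24336853 to 24351494) encodes a secreted antagonist that blocks the receptor of interleukin 1. It stood at 248, 209 and 187 CPM in Vhl GFP and at 22.2, 21.2 and 21.9 in Vhl Cre, a log2 effect of -3.30. In the Vhl/Rassf1a line it stood at 43.0, 37.9 and 53.2 CPM in GFP and 14.7, 13.8 and 17.6 in Cre, an effect of -1.54. The lines parted in GFP, where Vhl was the higher by several fold without overlap, and the Cre libraries of both lines were low. The difference, 1.77 (SE 0.17, adjusted p = 2.3e-06), was the highest of the genes named by size.

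Mmp3 and Mmp13 encode matrix metalloproteases and lie in the same gene cluster (chromosome 9, 7445822 to 7455975 and chromosome 9, 7272514 to 7283331). Mmp3 stood at 12.5, 12.6 and 14.8 CPM in Vhl GFP and 5.96, 5.36 and 5.61 in Vhl Cre. Vhl/Rassf1a cells had 8.59, 7.76 and 10.1 in GFP and 9.86, 9.02 and 11.2 in Cre. It fell in Vhl cells and its effect in Vhl/Rassf1a cells did not pass the test (0.19, adjusted p = 0.242), with a difference of 1.43 (SE 0.17, adjusted p = 2.15e-05). Mmp13 was at 12.5, 15.4 and 15.7 CPM in Vhl GFP, and all other groups were lower, at 5.83, 6.04 and 6.39 in Vhl Cre, 5.60, 4.82 and 6.27 in Vhl/Rassf1a GFP and 5.31, 5.66 and 5.39 in Vhl/Rassf1a Cre. Its difference was 1.23 (SE 0.19, adjusted p = 0.000221).

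Cxcl5, a chemokine that attracts neutrophils, parted in Cre instead. It stood at 36.3, 23.6 and 31.3 CPM in Vhl GFP and 31.4, 27.4 and 36.1 in Vhl/Rassf1a GFP, which overlapped. It then fell to 8.47, 6.95 and 6.93 in Vhl Cre and to 16.8, 19.0 and 15.9 in Vhl/Rassf1a Cre, and its difference was 1.15 (SE 0.18, adjusted p = 0.000355). The other members that passed, chosen after their values were seen, were Il33 (1.69), Cxcl1 (1.10), Cxcl12 (0.33) and Ptgs2 (-0.43), where Ptgs2 encodes the cyclooxygenase of prostaglandin synthesis. Il33 and Cxcl1 averaged under 5 CPM. Across the alternatives the count of higher members was 6 to 8, while the median of the list ranged from 0.061, without Vhl GFP replicate 2, to 0.30.

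Extracellular matrix genes had 14 positive and 2 negative differences among 36 tested, against 3.44% and 2.65% of all genes, with a median of 0.23. Their summed level with GFP was 113200 to 118900 CPM in the Vhl line and 85470 to 97700 in Vhl/Rassf1a. With GFP it was 87800 to 90870 CPM in WT and 97060 to 105600 in Rassf1a cells. In Vhl cells 17 of them fell and 7 rose with Cre, where 18.7% and 17.4% of all genes did, and in Vhl/Rassf1a cells 7 fell and 9 rose, where 14.8% and 14.9% did. Without Vhl/Rassf1a GFP replicate 2 the counts were 17 and 2, with GC-corrected offsets 18 and 4, and in a fit of only the 12 libraries 9 and 0 passed. Col3a1, a fibrillar collagen chain, stood at 2312, 2140 and 2394 CPM in Vhl GFP and 1551, 1686 and 1644 in Vhl Cre. It stood at 1670, 2046 and 1910 CPM in Vhl/Rassf1a GFP and 1864, 1851 and 2139 in Vhl/Rassf1a Cre, where the groups overlapped, and the difference was 0.55 (SE 0.10, adjusted p = 0.0015). Fbln1, which encodes a fibulin, a matrix glycoprotein, stood at 43.1, 38.6 and 41.6 CPM in Vhl GFP and 18.5, 19.2 and 21.5 in Vhl Cre. It stood at 51.6, 63.2 and 55.1 CPM in Vhl/Rassf1a GFP and 49.8, 43.6 and 50.9 in Vhl/Rassf1a Cre. All Vhl Cre libraries of Fbln1 lay below all others, and the difference was 0.83 (SE 0.11, adjusted p = 5.76e-05).

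Thbs2, a matricellular thrombospondin, moved in opposite directions. It was at 679, 658 and 681 CPM in Vhl GFP and 568, 595 and 576 in Vhl Cre, and at 512, 532 and 567 in Vhl/Rassf1a GFP and 687, 656 and 793 in Vhl/Rassf1a Cre. Its effects were -0.22 and 0.41, both past the test, and the difference was 0.62 (SE 0.08, adjusted p = 5.81e-05). Col15a1 had a difference of 0.86 (adjusted p = 0.00097) and Col1a2 of 0.38 (adjusted p = 0.0124). Col1a2 did not pass with GC-corrected offsets (adjusted p = 0.0811) or in the fit of only the 12 libraries (0.0583). Other members that passed, chosen after their values were seen, included all 3 listed chains of collagen VI, Col6a1 (0.43), Col6a2 (0.52) and Col6a3 (0.49), elastin, Eln (0.58), and Col14a1 (0.69); Lamb1 (-0.25) and Fbln5 (-0.24) were the 2 negative ones. Of 10 small leucine-rich proteoglycans, which organise collagen fibrils, 2 were higher and 0 lower, against 3.44% and 2.65% of all genes. With GC-corrected offsets 4 were higher and 0 lower. Fmod had 0.65 (SE 0.10, adjusted p = 0.000235) and Dcn 0.76 (SE 0.17, adjusted p = 0.00908). Dcn stood at 21.0, 18.8 and 17.6 CPM in Vhl GFP and 18.8, 18.1 and 19.7 in Vhl Cre, and rose from 10.9, 8.64 and 11.5 in Vhl/Rassf1a GFP to 16.3, 15.5 and 19.9 in Vhl/Rassf1a Cre. Dcn rose with Cre in WT cells as well, by 0.80 (adjusted p = 0.00115), against 0.74 in Vhl/Rassf1a cells. In Rassf1a cells its effect of 0.39 did not pass the test (adjusted p = 0.26). Of 17 fibroblast markers 5 were higher and 0 lower (3 to 7 higher over the alternatives), against the same 3.44% and 2.65%. Of the 5, 4 (Col1a2, Col3a1, Dcn and Fbln1) are members of the matrix or proteoglycan lists as well.

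Most of the remaining genes with the highest differences fell more in Vhl cells than in Vhl/Rassf1a cells. Col18a1, whose product holds the endostatin fragment, stood at 210, 138 and 170 CPM in Vhl GFP and 46.8, 49.7 and 52.5 in Vhl Cre, and at 140, 189 and 153 in Vhl/Rassf1a GFP and 102, 97.3 and 120 in Vhl/Rassf1a Cre. The GFP groups overlapped, the Cre groups did not, and the difference was 1.21 (SE 0.17, adjusted p = 0.000101). Sned1, a matrix glycoprotein gene, was at 139, 127 and 115 CPM in Vhl GFP against 53.7, 59.4 and 52.1 in Vhl/Rassf1a GFP, while its Cre libraries overlapped at 33.1, 29.4 and 33.7 and 32.9, 32.6 and 32.1. Its difference was 1.22 (SE 0.10, adjusted p = 3.38e-07). Man1a, an alpha-mannosidase of the Golgi, was at 125, 109 and 123 CPM in Vhl GFP and at 59.5, 53.9 and 52.4 in Vhl Cre, 66.7, 49.7 and 75.1 in Vhl/Rassf1a GFP and 67.7, 64.5 and 66.3 in Vhl/Rassf1a Cre, with a difference of 1.16 (SE 0.16, adjusted p = 8.5e-05). Thus Sned1 parted in GFP and Col18a1 in Cre. Man1a parted in both, with Vhl/Rassf1a the lower in GFP and the higher in Cre.

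Slc7a2, a carrier of cationic amino acids, Enpp2, which encodes autotaxin, and Gda, guanine deaminase, had differences of 1.17, 1.14 and 1.13 (adjusted p = 0.000171, 0.0014 and 0.000984). Pi15, a secreted peptidase inhibitor, and Pamr1 moved in opposite directions in the lines. Pamr1 stood at 22.3, 20.0 and 20.9 CPM in Vhl GFP and 17.1, 15.8 and 15.5 in Vhl Cre, and at 5.12, 5.68 and 5.94 in Vhl/Rassf1a GFP and 9.16, 10.5 and 10.4 in Vhl/Rassf1a Cre. It fell in Vhl cells (-0.38) and rose in Vhl/Rassf1a cells (0.84), and its difference was 1.22 (SE 0.17, adjusted p = 0.000112). Pi15 had effects of -0.71 and 0.65 and a difference of 1.36 (SE 0.31, adjusted p = 0.00926).

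**Figure D3:**
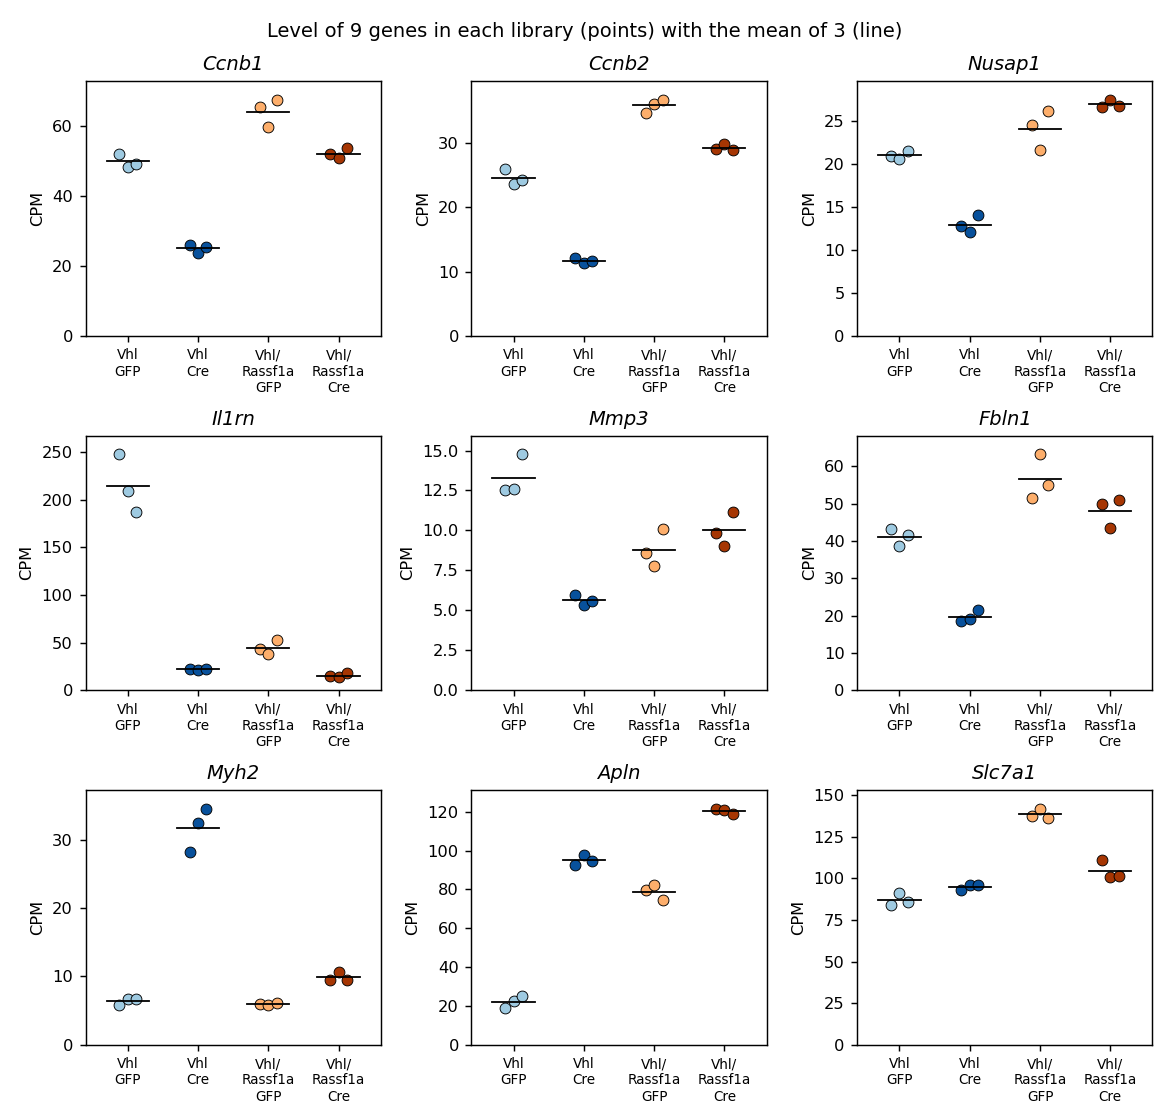
Level in CPM of 9 genes in each of the 12 libraries (points, 3 per group) with the group mean (line); every vertical axis starts at 0. The Cre groups part in Ccnb1, Ccnb2, Nusap1, Fbln1 and Myh2, with Vhl Cre lowest in the first 4 and highest in Myh2, while the GFP groups part most in Il1rn, Apln and Slc7a1.

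Among the lowest differences were genes that rose with Cre in Vhl cells and less, or not by the test, in Vhl/Rassf1a cells. Myh2 and Myh1 are neighbouring genes of skeletal muscle myosin heavy chains (chromosome 11, 67171027 to 67197517 and chromosome 11, 67200052 to 67224575). Myh2 stood at 5.78, 6.62 and 6.66 CPM in Vhl GFP and 5.92, 5.85 and 6.05 in Vhl/Rassf1a GFP, which overlapped. It rose to 28.3, 32.5 and 34.6 in Vhl Cre but only to 9.54, 10.6 and 9.46 in Vhl/Rassf1a Cre, a difference of -1.59 (SE 0.12, adjusted p = 1.25e-07). Myh1 rose from 9.35, 13.54 and 13.1 CPM to 30.5, 32.9 and 34.7 in the Vhl line and stood at 14.1, 13.49 and 13.1 in GFP and 11.3, 14.0 and 13.2 in Cre of the Vhl/Rassf1a line, a difference of -1.52 (SE 0.16, adjusted p = 4.33e-06). As paralogues with similar sequences, their reads could be exchanged by the counting. Of 5 tested skeletal muscle markers 1 passed (20%), against 6.09% of all genes. It was Acta1, the skeletal alpha-actin, with a difference of -0.70 (SE 0.14, adjusted p = 0.00364), and the other 4 were under 1 CPM in each of the 4 groups.

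Apln (chromosome X, 48025146 to 48034853) encodes apelin, a peptide ligand active on blood vessels. It stood at 19.0, 22.7 and 25.0 CPM in Vhl GFP and 92.7, 97.8 and 94.7 in Vhl Cre. Vhl/Rassf1a cells were already at 79.7, 82.4 and 74.5 CPM in GFP and reached 122, 121 and 119 in Cre. The largest gap lay between the GFP groups, and the difference was -1.48 (SE 0.12, adjusted p = 2.92e-07). Adm2, which encodes a peptide of the adrenomedullin family, rose from 1.34, 1.14 and 1.24 to 12.6, 14.3 and 14.0 CPM in the Vhl line and from 1.56, 1.77 and 1.33 to 8.33, 8.10 and 9.53 in the Vhl/Rassf1a line. The GFP groups overlapped, and the difference was -0.99 (SE 0.25, adjusted p = 0.0167). The receptor genes Kdr, of a receptor for VEGF, and Ptprb, of the endothelial phosphatase VE-PTP, had -0.97 and -1.08 (adjusted p = 0.000809 and 1.25e-07). Kdr stood at 3.75, 4.60 and 4.43 CPM in Vhl GFP and 8.75, 7.60 and 8.29 in Vhl Cre, against 10.2, 10.1 and 9.60 and 9.28, 10.9 and 9.21 in the Vhl/Rassf1a line. Kdr was the 1 of 9 endothelial markers that passed (11.1%), against 6.09% of all genes. The summed level of the 9 in the Vhl line was 134 to 145 CPM with GFP and 190 to 201 with Cre. It was 167 to 170 CPM with GFP and 206 to 209 with Cre in the Vhl/Rassf1a line. The part of endothelial cells in these results was not tested.

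Sfrp2, a secreted Wnt antagonist, rose in Vhl cells from 10.6, 13.4 and 9.76 CPM to 28.7, 33.3 and 34.1. Its Vhl/Rassf1a libraries were at 12.8, 14.9 and 11.2 in GFP and 13.6, 15.7 and 14.0 in Cre, which overlapped, and the difference was -1.36 (SE 0.21, adjusted p = 0.000244). Kank4 had -1.23, Kcnf1, a potassium channel subunit, -1.23, Clic5, a chloride intracellular channel gene, -1.07, and Lrp2, which encodes the endocytic receptor megalin, -1.06, with adjusted p from 4.54e-05 to 0.00669. Krt18, a keratin of simple epithelia, rose from 2.90, 3.70 and 3.61 to 11.4, 13.2 and 12.5 CPM in the Vhl line and from 8.83, 10.1 and 6.96 to 16.1, 15.0 and 15.6 in the Vhl/Rassf1a line, and its difference was -1.01 (SE 0.18, adjusted p = 0.0014). Krt18 and Krt19 (-0.57 (SE 0.17, adjusted p = 0.0426)) were the 2 of 7 epithelial markers that passed (28.6%), against 6.09% of all genes. Krt19 passed in only 3 of the 12 fits that each left out 1 library, with an adjusted p of up to 0.102 in the rest, and not with a replicate block across all groups (0.0577); 1 of the 7 passed without Vhl/Rassf1a GFP replicate 2 and 4 with GC-corrected offsets. Both are also mesothelial markers, and the defining epithelial genes Epcam and Cdh1 had group means of at most 0.416 CPM. The summed level of the 7 epithelial markers in the Vhl line was 48.4 to 73.1 CPM with GFP and 142 to 162 with Cre. It was 87.2 to 114 CPM with GFP and 207 to 215 with Cre in the Vhl/Rassf1a line. The part of such cells in these results was not tested.

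The hypoxia-responsive programme rose in both lines by similar medians. Of 39 genes of the hypoxia list 34 rose with Cre in Vhl cells (median 1.70) and 35 in Vhl/Rassf1a cells (median 1.79). Of all genes 17.4% and 14.9% rose. In the hypoxia list 2 had a positive and 4 a negative difference, which makes 15.4% against 6.09% of all genes. The median difference was 0.07. With GC-corrected offsets 7 were higher and 7 lower. Of 22 genes of glucose transport and glycolysis 20 and 19 rose, against the same 17.4% and 14.9%, with medians of 1.17 and 1.20. In each direction 2 differed (18.2% together), or 4 higher and 2 lower with GC-corrected offsets. Most members with a negative difference rose in both lines and less in Vhl/Rassf1a cells. Stc2, which encodes a stanniocalcin, rose from 10.3, 10.0 and 13.1 to 72.1, 74.0 and 75.6 CPM in the Vhl line and from 20.6, 20.9 and 19.8 to 74.8, 73.7 and 76.7 in the Vhl/Rassf1a line. Its Cre groups overlapped and its GFP groups did not, and the difference was -0.85 (SE 0.11, adjusted p = 4.53e-05).

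Egln3, the oxygen-sensing HIF hydroxylase PHD3, rose from 16.1, 16.9 and 16.9 to 204, 209 and 198 CPM in the Vhl line and from 22.3, 23.6 and 26.3 to 189, 185 and 200 in the Vhl/Rassf1a line, and its difference was -0.62 (SE 0.08, adjusted p = 7.16e-05). Car12, a carbonic anhydrase of the cell surface, started at 12.0, 12.1 and 11.6 and 12.8, 12.4 and 12.9 CPM in GFP of the lines. It reached 94.6, 89.6 and 90.9 in Vhl Cre and 60.5, 63.7 and 66.2 in Vhl/Rassf1a Cre, which did not overlap, with a difference of -0.62 (SE 0.09, adjusted p = 9.92e-05). Slc2a1, the glucose transporter GLUT1, had -0.37 (adjusted p = 0.00952) and Pfkp, a phosphofructokinase subunit, -0.27 (adjusted p = 0.0192). Pfkfb3, which makes the activator of phosphofructokinase, was the opposite case. It rose from 64.4, 57.1 and 62.1 to 236, 240 and 229 CPM in the Vhl line and from 41.3, 45.5 and 44.6 to 225, 222 and 223 in the Vhl/Rassf1a line, a difference of 0.41 (SE 0.07, adjusted p = 0.00117). Angptl4 had 0.55 (adjusted p = 0.00508) and the neuronal enolase gene Eno2 0.49 (adjusted p = 0.0211). The HIF subunit gene Arnt2 had 0.51 (adjusted p = 0.00553) and Hif1a 0.33 (adjusted p = 0.211).

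Hippo pathway genes were listed because Rassf1a binds kinases of that pathway. Of 22 Rassf paralogues and Hippo core genes 1 was higher and 0 lower, a share of 4.55% near the 6.09% of all genes. The counts were 1 and 1 without Vhl/Rassf1a GFP replicate 2 and 2 and 3 with GC-corrected offsets. The 1 member was Rassf2, which stood at 24.0, 21.7 and 19.5 CPM in Vhl GFP and 12.6, 12.0 and 11.9 in Vhl Cre, and at 20.5, 19.9 and 18.3 in Vhl/Rassf1a GFP and 18.2, 18.0 and 16.3 in Vhl/Rassf1a Cre. Its Vhl Cre libraries lay below all others, and the difference was 0.68 (SE 0.12, adjusted p = 0.000736). Of 22 targets of YAP, the coactivator held back by the Hippo kinases, 1 was higher and 4 were lower, with a median of -0.09. Together they make 22.7%, against 6.09% of all genes, and 3.44% of all genes were higher and 2.65% lower. Without Vhl/Rassf1a GFP replicate 2 the counts were 1 and 2, and with GC-corrected offsets 3 and 8. Ankrd1, a widely used YAP target, rose from 74.4, 84.5 and 75.9 to 179, 200 and 184 CPM in the Vhl line and from 91.2, 90.2 and 91.2 to 149, 146 and 140 in the Vhl/Rassf1a line, a difference of -0.59 (SE 0.09, adjusted p = 0.000155). Dlc1 had -0.37 (adjusted p = 0.00016), Axl -0.28 (adjusted p = 0.0446) and Nt5e 0.63 (adjusted p = 0.0109). Axl passed in 5 of the 12 fits that each left out 1 library, with an adjusted p of up to 0.125 in the rest, and it did not pass with a replicate block across all groups (0.0622) or within genotype (0.1), in the fit of only the 12 libraries (0.074) or without both libraries that stand apart (0.0526).

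The amino acid response list, which holds Atf4 and genes of amino acid transport, synthesis and tRNA charging that it controls, was the list with the highest share of negative differences. Of 29 tested, 10 were lower and 0 higher, against 2.65% of all genes lower, and the median was -0.22. They fell in both lines, where 18.7% (Vhl) and 14.8% (Vhl/Rassf1a) of all genes did. The counts were 21 of 29 in Vhl cells (median -0.45) and 27 in Vhl/Rassf1a cells (median -0.58). The GFP libraries of Vhl/Rassf1a were the higher in 11 of 29 and the lower in 1, against 13.2% and 13.6% of all genes. The Cre libraries of Vhl/Rassf1a were the higher in 4 and the lower in 4, against 9.75% and 9.07%. Across the alternatives 6 to 13 members were lower, and 8 without Vhl/Rassf1a GFP replicate 2, which was the high library of its group for this list. Slc7a1, a carrier of cationic amino acids, stood at 84.2, 91.0 and 85.8 CPM in Vhl GFP and 92.8, 95.9 and 96.0 in Vhl Cre. It fell from 138, 142 and 136 in Vhl/Rassf1a GFP to 111, 101 and 102 in Vhl/Rassf1a Cre, and its difference was -0.53 (SE 0.07, adjusted p = 3.09e-05).

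Mthfd2, a mitochondrial enzyme of folate metabolism, was at 57.2, 55.5 and 58.1 CPM in Vhl GFP and 29.9, 33.7 and 31.5 in Vhl Cre. It was at 69.0, 74.0 and 74.3 in Vhl/Rassf1a GFP and 29.1, 30.4 and 29.1 in Vhl/Rassf1a Cre, a difference of -0.45 (SE 0.07, adjusted p = 0.000325). The GFP groups of Mthfd2 did not overlap and the Cre groups did. Slc1a4, a carrier of neutral amino acids, had -0.40 (SE 0.06, adjusted p = 0.00023), and Nars, the asparaginyl-tRNA synthetase, -0.24 (SE 0.05, adjusted p = 0.00802). The other 6, chosen after their values were seen, were Slc7a5 (-0.36), Aars (-0.30), Slc3a2 (-0.29), Asns (-0.29), Atf4 (-0.24) and Gars (-0.19).

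Interferon-stimulated genes fell in both lines, where 18.7% (Vhl) and 14.8% (Vhl/Rassf1a) of all genes did. The counts were 44 of 46 in Vhl cells (median -1.34) and 45 of 46 in Vhl/Rassf1a cells (median -1.64). None of the 46 passed the test of the difference by edgeR's quasi-likelihood test or by DESeq2, 2 had an unadjusted p below 0.05, and the median difference was -0.12. Across the alternatives up to 8 were lower (with no filter on low counts) and up to 1 higher, and the median ranged from -0.46 to 0.17, so its sign was not stable. The spread within the Vhl/Rassf1a groups was large. Bst2, the antiviral protein tetherin, stood at 118, 162 and 145 CPM in Vhl GFP and 67.0, 62.1 and 63.5 in Vhl Cre. It stood at 110, 224 and 88.7 in Vhl/Rassf1a GFP, where replicate 2 was the high one, and 25.6, 26.9 and 45.1 in Vhl/Rassf1a Cre, where replicate 3 was. Its difference was -0.97 (SE 0.35, adjusted p = 0.109). Bst2 passed, with a negative difference, with GC-corrected offsets (adjusted p = 0.0263), without Vhl/Rassf1a GFP replicate 3 (0.0211) and without Vhl/Rassf1a Cre replicate 3 (0.0291). It also passed when no filter on low counts was used (adjusted p = 2.85e-21), though its difference hardly moved (-0.98). Given the uneven replicates, that p-value is not relied on here.

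**Figure D4:**
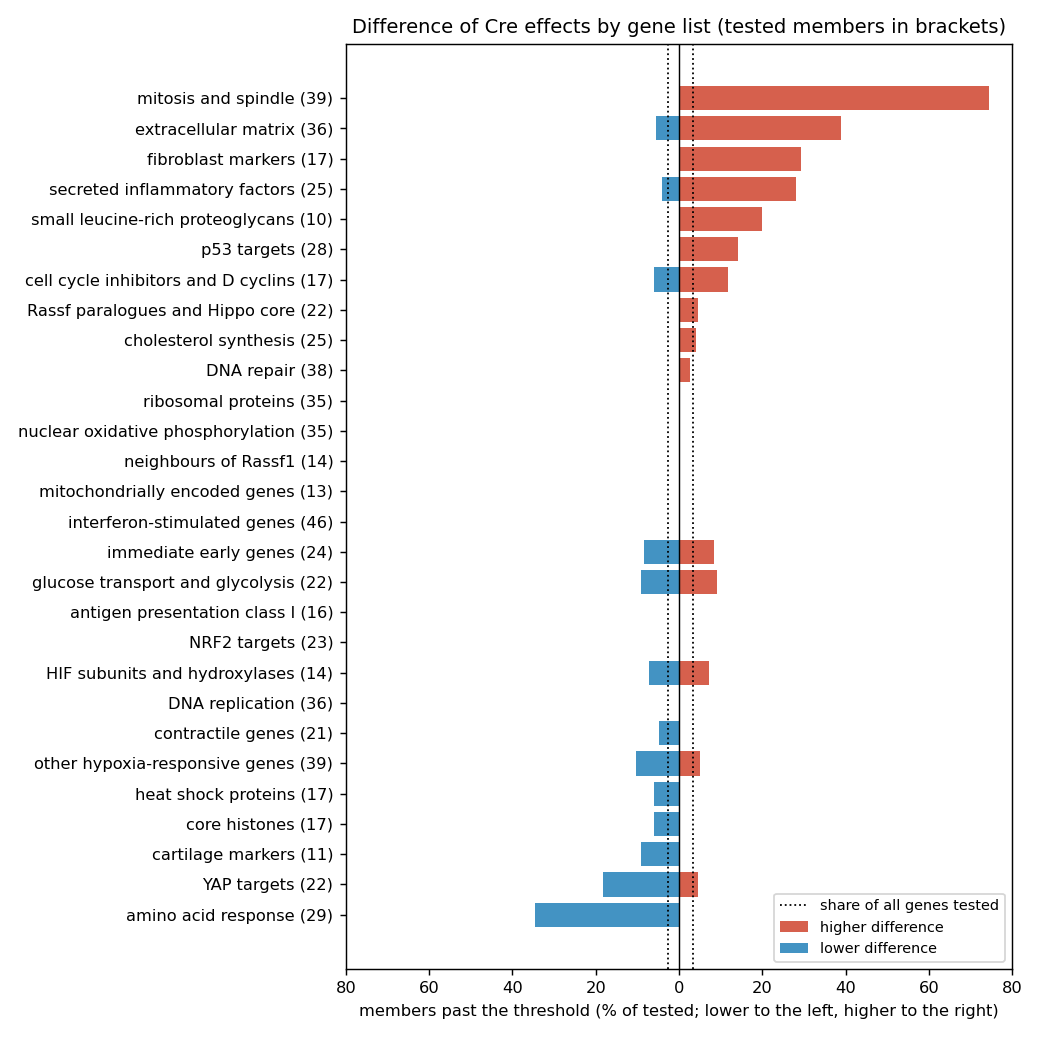
Bars give the percent of the tested members of each gene list (number in brackets, lists of at least 10 tested members) that passed the test of the difference of Cre effects, to the right where positive and to the left where negative, and dotted lines mark the shares among all genes tested, 3.44% and 2.65%. The longest bars are those of mitosis and spindle (29 of 39 higher), extracellular matrix (14 of 36 higher) and amino acid response (10 of 29 lower).

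Several lists had few or no members past the test. None passed among 16 genes of class I antigen presentation, 6 of MHC class II, 23 NRF2 targets, 35 ribosomal proteins, 35 nuclear genes of oxidative phosphorylation, 13 mitochondrially encoded genes, 14 neighbours of Rassf1 or 8 neighbours of Vhl by edgeR's quasi-likelihood test. At an unadjusted p below 0.05 these lists held, in that order, 0, 0, 3, 0, 1, 1, 5 and 2 genes. By DESeq2 1 NRF2 target and 3 neighbours of Rassf1 passed, and none of the other 6 lists. Without Vhl/Rassf1a GFP replicate 2, 2 neighbours of Rassf1 and 1 gene of class I antigen presentation were higher. With GC-corrected offsets 4 mitochondrially encoded genes, 2 neighbours of Rassf1 and 1 NRF2 target were higher and 3 neighbours of Rassf1 lower. With no filter on low counts 9 mitochondrially encoded genes were higher. Those 9 calls are not relied on here, as that fit gave Bst2 a far smaller p-value at a like difference. The mitochondrially encoded genes had a median of 0.41, which was 0.13 without Vhl/Rassf1a GFP replicate 2. The 3 Vhl/Rassf1a GFP libraries had mt-Co1 at 5702, 2800 and 5702 CPM. Of 25 genes of cholesterol synthesis 1 was higher (Tm7sf2, 0.38), of 17 heat shock genes 1 was lower (Hsph1, -0.32), of 21 contractile genes 1 was lower (Myh11, -0.52), and of 17 core histones 1 was lower (Hist1h3b, -0.84). The shares of these 4 lists lie near the 6.09% of all genes. Heat shock genes had 2 lower without Vhl/Rassf1a GFP replicate 2 and 4 with GC-corrected offsets, which also gave 3 higher for cholesterol synthesis. Tm7sf2 passed in 4 of the 12 fits that each left out 1 library, with an adjusted p of up to 0.122 in the rest, and not with a replicate block across all groups (0.071) or within genotype (0.0747), with no filter (0.16) or in the fit of only the 12 libraries (0.0945). Of 24 immediate early genes Fos (0.48) and Btg2 were higher and Myc (-0.50) and Fosb (-0.72) lower, 16.7% against 6.09% of all genes. The counts were 3 and 1 without Vhl/Rassf1a GFP replicate 2 and 4 and 3 with GC-corrected offsets. Fosb passed in 4 of the 12 fits that each left out 1 library, with an adjusted p of up to 0.15 in the rest, and not with either replicate block (0.0592), in the fit of only the 12 libraries (0.0888) or without both libraries that stand apart (0.0591). Of the other named genes that passed, Myc and Fabp4 did so in 11 of those 12 fits, Hist1h3b in 10, Pfkp, Eno2, Ddit4l and Cdkn1c in 9 and Ccnd2 in 8.

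Of all genes 3.44% were higher and 2.65% lower, which is the background of the marker counts that follow. Of the marker lists of other cell types, cartilage had 1 lower and 0 higher of 11, and 2 were higher without Vhl/Rassf1a GFP replicate 2 or with GC-corrected offsets. The lower one was Acan, the gene of the proteoglycan aggrecan. It stood at 3.86, 3.90 and 3.43 CPM in Vhl GFP and 4.03, 3.35 and 4.00 in Vhl Cre, and it fell from 7.75, 7.60 and 5.85 in Vhl/Rassf1a GFP to 2.80, 3.19 and 2.70 in Vhl/Rassf1a Cre, a difference of -1.32 (SE 0.17, adjusted p = 4.54e-05). Fat markers had 1 higher and 1 lower of 6, Cebpa (1.02 (SE 0.20, adjusted p = 0.00218)) and Fabp4 (-0.56 (SE 0.14, adjusted p = 0.016)). Neural markers had 1 higher of 6, Tubb3 (0.70 (SE 0.13, adjusted p = 0.00171)), and macrophage markers 0 of 6 (1 at an unadjusted p below 0.05 and 1 by DESeq2).

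The lines differed in more than the altered genes. The Y-linked genes Ddx3y, Eif2s3y and Kdm5d were lower in Vhl/Rassf1a than in Vhl libraries, with log2 values of -1.32, -1.32 and -0.82 among GFP libraries and of -1.57, -1.72 and -1.10 among Cre libraries. Ddx3y stood at 41.0, 42.0 and 40.1 CPM in Vhl GFP and 17.8, 12.4 and 19.3 in Vhl/Rassf1a GFP. Cre and GFP libraries also differed within the Vhl line. There 3 of the 5 sex-linked genes rose with Cre and 1 fell, against 17.4% and 18.7% of all genes. Xist fell there (-0.62, adjusted p = 0.00998). Ddx3y (0.51, adjusted p = 0.00143), Eif2s3y (0.53, adjusted p = 0.00215) and Uty (0.62, adjusted p = 0.017) rose. In the Vhl/Rassf1a line 0 of the 5 rose or fell by the test. Whether the mix of male and female cells changed with Cre was not tested. None of the 5 sex-linked genes passed the test of the difference of Cre effects by edgeR's quasi-likelihood test or by DESeq2, 3 had an unadjusted p below 0.05, and Xist had 0.76 (SE 0.26, adjusted p = 0.0882). With GC-corrected offsets, and likewise without both libraries that stand apart, Xist was higher and 3 of the 5 were lower, among them Eif2s3y (adjusted p = 3.3e-05 and 0.000259) and Ddx3y (0.0081 and 0.00414). Xist also passed without Vhl/Rassf1a GFP replicate 1 (0.0451), and Eif2s3y without Vhl/Rassf1a GFP replicate 2 (0.00931). With no filter on low counts Xist passed as well (1.92e-15), though its difference of 0.76 did not move, and that p-value is not relied on here. Ifi202b, an interferon-inducible gene chosen after its values were seen, was the higher in Vhl/Rassf1a libraries by 5.98 in GFP and 4.98 in Cre on the log2 scale, and its difference of Cre effects was -1.003 (adjusted p = 0.0127). Across the 19 autosomes the median difference of genes of at least 5 CPM ran from -0.02 to 0.04. The labels give no embryo or sex, and the Rassf1a genotype cannot be told apart from other features in which the lines differ.

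The same kind of difference was formed in cells with intact Vhl, as the Cre effect in Rassf1a cells minus that in WT cells, from the other 12 libraries. There 1 of 16573 genes (0.00603%) passed by edgeR's quasi-likelihood test and 1 by DESeq2, while 544 had an unadjusted p below 0.05. It was Zmynd10 (chromosome 9, 107547298 to 107551319), a gene of cilia that lies next to Rassf1. In Rassf1a cells it stood at 0.145, 0.106 and 0.142 CPM in GFP and 1.26, 0.949 and 1.39 in Cre, and in WT cells at 0.230, 0.648 and 0.235 in GFP and 0.171, 0.338 and 0.111 in Cre. The difference was 3.99 (adjusted p = 0.00494). In the Vhl/Rassf1a line it rose from 0.299, 0.280 and 0.250 to 1.15, 1.03 and 0.951 CPM (1.91, adjusted p = 6.04e-05), in Vhl cells it stood at 0.290, 0.181 and 0.235 in GFP and 0.355, 0.398 and 0.288 in Cre, and the difference of those lines was 1.34 (SE 0.52, adjusted p = 0.15). Ccnb1 had a Rassf1a minus WT difference of 0.04 and Il1rn of -0.33, neither past the test. The Cre effect itself passed in 209 genes (1.26%) in WT cells and in 65 (0.392%) in Rassf1a cells.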

How the data were processed

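RNA of cultured mouse embryonic fibroblasts was sequenced in 24 libraries of 4 genotypes, with 3 Cre and 3 GFP libraries each, and the 12 libraries of Vhl and Vhl/Rassf1a cells form the comparison. The table the authors deposited holds raw read counts, whole numbers for 45706 Ensembl gene IDs. Per the submitters' processing notes, the tools were Trimmomatic 0.38 and STAR 2.5.2b and the build GRCm38. How reads were assigned to genes, and whether strand was used, is not given in the sources used here; reads of overlapping genes or close copies may thus be mixed. Symbols and coordinates came from GENCODE M21, which named 45143 IDs. Genotype and treatment were taken from the sample titles.

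From the counts, genes were kept by filterByExpr of edgeR 4.0.16 (minimum count 10, minimum total 15), which left 16573. A quasi-likelihood model (glmQLFit and glmQLFTest, TMM normalization, 1 mean per group, 16 residual degrees of freedom, R 4.3.3) took in all 24 libraries, and 8 contrasts were tested. The common biological coefficient of variation (7.73%) describes the spread between replicates. Two-sided p-values received a Benjamini-Hochberg adjustment across the tested genes, with a threshold of 0.05. Adjusted p-values are from this edgeR test. The standard error (SE) of a log2 difference is the absolute difference over the square root of F. CPM values use TMM library sizes. Replicates correlated at 0.9878 to 0.9947 across genes, and no pair agreed within sampling noise (chi-square per degree of freedom of at least 2.858). In simulated counts of 16459 genes, the test of the difference recovered 99 of 100 genes changed by 1 on the log2 scale and 56 of 100 changed by 0.5, with 13 unchanged genes called. The changed genes were drawn from those with a mean of at least 5 CPM, so recovery at lower levels is not known. Deviations of libraries that follow GC content were not simulated.

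Genes named by rule were Vhl, Rassf1, the 12 highest and 12 lowest differences past the threshold with a mean of at least 5 CPM, a gene symbol (clone names were passed over) and a call that held with each of the 12 libraries left out, and up to 4 members of each of 38 gene lists with the smallest adjusted p. The lists hold 787 genes, 735 of them tested, after 1 gene of the DNA repair list, which is not reported here, was left out. The members, lists and tests were chosen with earlier results of these data known. Lists are described by counts and medians without a test. Alternatives were DESeq2 size factors, DESeq2 1.42.0 with its Wald test, all genes with no filter, only the 12 libraries, a replicate block, GC-corrected offsets, the removal of both libraries that stand apart (Vhl/Rassf1a GFP replicate 2 and Rassf1a GFP replicate 1), and each library left out. Protein sequences and a genome were not used here.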

Additional observations from a re-analysis of the deposited data

Results flagged for a closer look

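The results given here are those whose Cre effect differed between Vhl/Rassf1a and Vhl cells by the edgeR test of the difference itself. They are 1010 genes in all, and the named ones follow with their log2 difference, positive where the effect was more upward in Vhl/Rassf1a cells. The highest were Il1rn (1.77), Mmp3 (1.43), Pi15 (1.36), Mmp13 (1.23), Sned1 (1.22), Pamr1 (1.22), Col18a1 (1.21), Slc7a2 (1.17), Man1a (1.16), Cxcl5 (1.15), Enpp2 (1.14) and Gda (1.13). The lowest were Myh2 (-1.59), Myh1 (-1.52), Apln (-1.48), Sfrp2 (-1.36), Kank4 (-1.23), Kcnf1 (-1.23), Ptprb (-1.08), Clic5 (-1.07), Lrp2 (-1.06), Krt18 (-1.01), Adm2 (-0.99) and Kdr (-0.97).

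Of cell division and DNA repair they were Ccnb2 (0.78), Ccnb1 (0.69), Nusap1 (0.86), Prc1 (0.57), Ckap2 (0.78), Fanci (0.55), Btg2 (0.57), Mdm2 (0.25), Ddit4l (0.41), Ccnd1 (0.35), Ccnd2 (0.25) and Cdkn1c (-0.53). Of the matrix and the contractile apparatus they were Fbln1 (0.83), Thbs2 (0.62), Col15a1 (0.86), Col3a1 (0.55), Col1a2 (0.38), Fmod (0.65), Dcn (0.76), Myh11 (-0.52), Acta1 (-0.70) and Acan (-1.32). Of hypoxia and glycolysis they were Stc2 (-0.85), Egln3 (-0.62), Car12 (-0.62), Slc2a1 (-0.37), Pfkp (-0.27), Pfkfb3 (0.41), Eno2 (0.49), Angptl4 (0.55) and Arnt2 (0.51). Of the Hippo pathway and YAP they were Rassf2 (0.68), Ankrd1 (-0.59), Dlc1 (-0.37), Axl (-0.28) and Nt5e (0.63). Of amino acid, sterol and stress genes they were Slc7a1 (-0.53), Slc1a4 (-0.40), Mthfd2 (-0.45), Nars (-0.24), Tm7sf2 (0.38) and Hsph1 (-0.32). The remaining ones were Fos (0.48), Myc (-0.50), Fosb (-0.72), Hist1h3b (-0.84), Krt19 (-0.57), Cebpa (1.02), Fabp4 (-0.56) and Tubb3 (0.70).

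In cells with intact Vhl, Zmynd10 was the 1 gene whose Cre effect differed between Rassf1a and WT cells, by 3.99 on the log2 scale. Its levels were under 2 CPM in all 24 libraries.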

How the results depend on the processing

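The count of genes whose Cre effect differed between the lines depended on the processing, and every alternative kept more positive than negative differences. Against 1010 genes, 637 passed in a fit of only the 12 libraries, 1859 without both libraries that stand apart and 2176 with GC-corrected offsets. Of the 1010 genes, 623, 958 and 988 passed again in these fits. The cause of these shifts was not tested. The fit of only the 12 libraries had 8 residual degrees of freedom, against 16, and also filtered and normalized those libraries on their own. With 1 library left out the count ran from 705, without Vhl GFP replicate 1, to 1191, without Vhl/Rassf1a GFP replicate 2, and 558 genes passed in all of these fits. DESeq2 called 1251 genes, its size factors in edgeR gave 1015, and no filter on low counts gave 1010, of which 726 were shared.

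The labels give the groups the same replicate numbers, and no pairing of samples by these numbers was seen. The deviations of same-numbered Cre and GFP libraries from their group means correlated at -0.384 to 0.208, 3 of 12 pairs were over 0.1, and 0 of the 6 pairs of the Vhl and Vhl/Rassf1a lines were. These values cannot exclude a pairing, because the deviations also followed GC content. In replicates 1, 2 and 3 of Vhl/Rassf1a GFP they correlated with it at -0.708, 0.799 and -0.709. With a replicate block 891 genes passed, and 700 with a replicate block within each genotype. The block within genotype cannot compare GFP or Cre libraries between lines.

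Left-out libraries gave 5123 to 5364 genes for the Cre effect in Vhl cells, 4066 to 4798 in Vhl/Rassf1a cells, 3619 to 4732 between GFP and 2417 to 2529 between Cre libraries. The count for Rassf1a against WT was 1 in each of those fits, 22 with no filter and 2 without both libraries that stand apart. Mitosis genes with a positive difference numbered 22 (without Vhl Cre replicate 2) to 34 (GC-corrected offsets) of 39, with 0 negative in each alternative. Genes at low counts and changes under about 0.5 on the log2 scale are the ones this depth and number of replicates could miss.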
